A study of Mus musculus with 18 samples.

Results

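Open promoters of protein-coding genes that are poor in CpG dinucleotides and have annotated coding starts on 1 strand only (one-way promoters) were described in liver macrophages (LMs). Transcription itself and noncoding starts were not considered. The promoters were taken from the deposited list of open chromatin regions on mouse chromosomes 1 to 19 by position and sequence alone. A region qualified when its midpoint lay within 1 kb of a protein-coding transcription start site, when no pair of coding starts on opposite strands lay within 1 kb of that midpoint, and when the 500 bp on each side of the midpoint had a CpG observed/expected ratio below 0.6 or a GC share below 0.5. The ratio compares the number of CpGs with that expected from the numbers of C and G. Of 69499 regions in the list, 68533 lay on chromosomes 1 to 19, and 6105 of these (8.91%) met the rule. Another 10075 regions met the first 2 conditions but were CpG-rich, 1726 lay at two-way coding promoters, and 50627 were over 1 kb from every coding start.

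The open regions came from fast-ATAC-Seq, in which a transposase inserts sequencing adapters into accessible DNA, on 50000 isolated LMs per reaction. LMs include resident Kupffer cells and monocyte-derived macrophages. The 18 libraries were 3 replicates for each of 3 genotypes (control, *Reverb*-hDKO, *Reverb/Scap*-hTKO) at ZT10 and at ZT22, from male C57BL/6J mice that all ate a high-fat, high-sucrose diet for 4 weeks. Per the methods, adult mice with floxed alleles of *Rev-erb*α and *Rev-erb*β, or of both and *Scap*, received AAV-TBG-CRE, whose TBG promoter acts in hepatocytes, and control mice received AAV-TBG-GFP, so the LMs themselves were not the target of the deletion. The list pools all libraries and gives only a chromosome, start, and end per region. Depth is therefore unknown, a region may be open in some libraries only, and neither replicates, genotypes, nor times of day could be compared. What follows describes which promoters were listed as open.

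In vertebrate genomes, methylated cytosines of CpGs are lost over time, and the stretches that escaped this loss, CpG islands, cover the starts of most housekeeping genes. CpG-poor promoters are the other main class. They are known for genes with tissue-restricted expression, they more often carry a TATA box, which fixes the place of initiation, and they depend on transcription factors bound close to the start. In the liver, hepatocyte genes are classically controlled there by HNF1, HNF4, FOXA, and C/EBP, whereas the ETS factor PU.1 has this role in macrophages.

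To show what these promoters look like, the 100 bases before the annotated start are printed 5′ to 3′ on the strand of the gene, read from NCBIM37, the assembly of mm9. Capitals mark letters that match 1 of the motifs searched, on either strand, except that a TATA box was marked only on the gene strand with its first base 40 to 20 bases before the start. The first 3 are promoters of plasma proteins made by hepatocytes. *Apob* encodes the main protein of very-low-density lipoprotein (chr12:7984354-7984453, plus strand), *Alb* encodes albumin (chr5:90889815-90889914, plus strand), and *Apoh* encodes apolipoprotein H (chr11:108256507-108256606, plus strand).
Apob: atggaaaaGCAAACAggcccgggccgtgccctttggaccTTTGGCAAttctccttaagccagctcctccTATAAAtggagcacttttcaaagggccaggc
Alb: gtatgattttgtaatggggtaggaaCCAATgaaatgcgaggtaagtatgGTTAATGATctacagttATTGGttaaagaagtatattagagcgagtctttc
Apoh: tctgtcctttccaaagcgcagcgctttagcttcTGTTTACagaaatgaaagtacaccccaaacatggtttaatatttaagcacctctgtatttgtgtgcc
In *Apob* the capitals mark a FOXA match, a C/EBP match, and a TATA box 31 bases before the start. *Alb* had no TATA box in this window. It had a CCAAT box, an HNF1 match that begins 51 bases before the start, and a second CCAAT box read on the other strand. *Apoh* had a FOXA match. The 1-kb windows of these 3 regions held 27, 11, and 12 CpGs.

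The promoters of enzymes of hepatocyte metabolism included *Cyp1a2*, a cytochrome P450 of drug metabolism (chr9:57531463-57531562, minus strand), and *Cyp8b1*, the sterol 12α-hydroxylase of bile acid synthesis (chr9:121825424-121825523, minus strand).
Cyp1a2: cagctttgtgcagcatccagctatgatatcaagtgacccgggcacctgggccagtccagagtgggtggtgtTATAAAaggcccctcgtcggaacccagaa
Cyp8b1: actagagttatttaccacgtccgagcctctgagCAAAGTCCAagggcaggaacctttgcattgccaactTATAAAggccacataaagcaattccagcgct
Both were shown first in their list because they hold a TATA box, which begins 29 and 31 bases before the start. *Cyp8b1* also held an HNF4 match 67 bases before it.

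Macrophage promoters shown are *C1qb* and *C1qc*, subunits of complement C1q (chr4:136442103-136442202 and chr4:136448981-136449080, both minus strand), and *Cd5l*, a secreted scavenger protein of tissue macrophages (chr3:87161703-87161802, plus strand).
C1qb: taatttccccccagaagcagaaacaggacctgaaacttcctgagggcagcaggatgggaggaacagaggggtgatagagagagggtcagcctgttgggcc
C1qc: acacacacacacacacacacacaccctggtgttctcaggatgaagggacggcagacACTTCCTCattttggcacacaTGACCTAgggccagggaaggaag
Cd5l: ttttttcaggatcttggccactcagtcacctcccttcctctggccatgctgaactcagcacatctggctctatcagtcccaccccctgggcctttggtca
The capitals in *C1qc* mark a PU.1 match read on the other strand, 44 bases before the start, and a RORE, the element of REV-ERB and ROR receptors, 23 bases before it. None of the motifs was in the other 2 windows. The 1-kb windows of *C1qb*, *C1qc*, and *Cd5l* held 21, 11, and 3 CpGs.

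Chemokine promoters shown are *Ccl2* (chr11:81848973-81849072, plus strand), *Ccl3* (chr11:83462858-83462957, minus strand), and *Ccl6* (chr11:83406590-83406689, minus strand), all attractants of myeloid cells.
Ccl2: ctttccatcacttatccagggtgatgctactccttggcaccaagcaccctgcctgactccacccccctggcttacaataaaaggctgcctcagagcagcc
Ccl3: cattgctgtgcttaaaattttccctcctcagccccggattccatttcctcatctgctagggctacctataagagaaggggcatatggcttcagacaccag
Ccl6: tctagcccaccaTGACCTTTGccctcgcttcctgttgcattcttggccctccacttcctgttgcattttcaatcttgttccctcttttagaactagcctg
The only match here was an HNF4 motif in *Ccl6*. These stretches may be read against CpG-rich one-way promoters of the housekeeping genes *Eef2* (chr10:80639276-80639375, plus strand) and *Ppia* (chr11:6315346-6315445, plus strand).
Eef2: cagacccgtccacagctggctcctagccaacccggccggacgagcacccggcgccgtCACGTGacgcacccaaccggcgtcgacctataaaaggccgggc
Ppia: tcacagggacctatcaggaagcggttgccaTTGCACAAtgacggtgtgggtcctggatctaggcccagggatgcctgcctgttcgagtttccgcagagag
The printed bases of *Eef2* and *Ppia* held 13 and 4 CpGs, and those of the 11 CpG-poor promoters held 0 to 3. The 1-kb windows of the housekeeping regions held 76 and 75 CpGs. *Eef2* had an E-box and *Ppia* a C/EBP match. *Eef2* also carries the letters of a TATA box nearer to the start than the window allows.

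The CpG-poor regions were 37.7% of the 16180 one-way promoter regions. The CpG ratio was below 0.6 in 5824 of them and the GC share below 0.5 in 2070, with 1789 meeting both conditions, 4035 the first alone, and 281 the second alone. Their median CpG ratio was 0.398 (5th to 95th percentile, 0.126 to 0.599), their median GC share was 52.7%, and their windows held a median of 26 CpGs, compared with 73 CpGs in CpG-rich regions. Since these values set the classes, they are a description. The class has no gap at its edge. There were 819 regions with a ratio from 0.55 to below 0.6 and a GC share of 0.5 or more, and 1004 CpG-rich regions with a ratio from 0.6 to below 0.65. Just inside that line were regions at *Tarbp2* and *Mrpl42* (ratio 0.599977 and 0.599917), and just outside it regions at *Dhx35* and *Dnmt1* (0.60004 and 0.600063). On the GC side, regions at *Rps9* and *A430107O13Rik* were inside with a GC share of 49.9% each, and regions at *Hist1h2af* and *1700041G16Rik* were outside with 50% each.

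By chromosome, CpG-poor regions made up 31.6% (chromosome 18) to 47.6% (chromosome 7) of one-way promoter regions. On chromosome 7 this was 612 of 1287 regions, with a 95% Wilson interval of 44.8% to 50.3%. The next highest share, 39.6% on chromosome 6, had an interval of 36.5% to 42.8%. All intervals given here cover counting error only, and regions of a shared gene are not independent.

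CpG-poor gene starts were less often open than CpG-rich ones. All coding genes were classed by the sequence around their 5′ end, and a start was counted as open when a region midpoint lay within 1 kb. Of 11304 CpG-poor one-way gene starts, 2957 were open (26.2%, interval 25.4% to 27.0%), compared with 6392 of 7672 CpG-rich starts (83.3%, interval 82.5% to 84.1%). The difference was -57.2 percentage points (Newcombe 95% interval, -58.3 to -56.0). The open share was higher in each successive bin of the CpG ratio, with overlapping intervals among the 3 highest bins only, from 5.64% of 1489 starts with a ratio below 0.1 to 29.2% at 0.3 to 0.4, 61.0% at 0.5 to 0.6, and 91.1% of 325 starts with a ratio of 1 or more. No jump was seen at 0.6, since the bins on either side of it differed by less (61.0% and 73.6%) than the bins from 0.4 to 0.6 did (42.4% and 61.0%). Olfactory and vomeronasal receptor genes, large families that are silent outside sensory neurons, were a sizeable part of the CpG-poor starts that were not open. Without them 2950 of 9873 CpG-poor starts were open (29.9%), and the difference was -53.4 points.

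**Figure D1:**
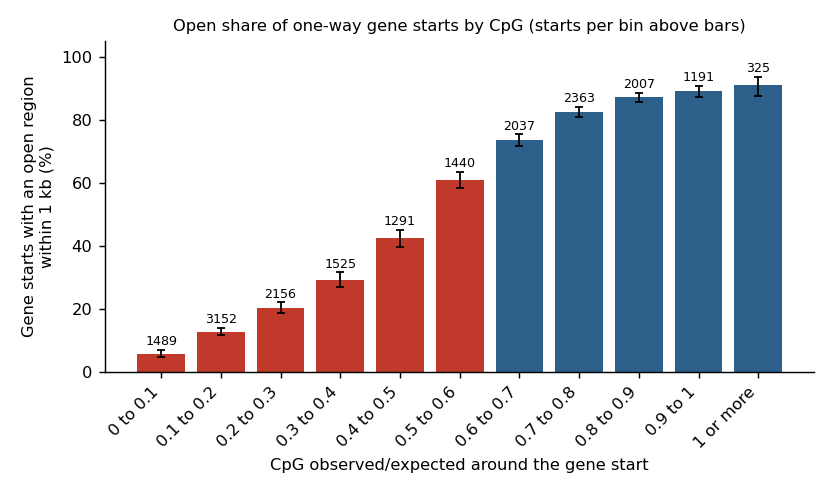
Share of one-way coding gene starts (percent, vertical axis) with an open region within 1 kb, by the CpG observed/expected ratio of the 1 kb around the start. Red bars lie below a ratio of 0.6 and blue bars at or above it, numbers above bars are starts per bin, and error bars are 95% Wilson intervals. The share goes from 5.64% in the lowest bin to 91.1% in the highest.

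A CpG-poor region lay at 4617 of the 21418 coding genes of chromosomes 1 to 19 (21.6%), where a gene counts when 1 of its coding starts is within 1 kb of the midpoint. An open region of any class lay at 12154 genes (56.7%). Of the 4617 genes, 3453 had 1 CpG-poor region, 907 had 2, and 257 had 3 or more. A CpG-rich one-way region was also present at 1482 of them (32.1%). These genes with both had a median span of 32457 bp, and 27.3% had a single coding start, whereas genes with CpG-poor regions alone had a median span of 17497 bp and 41.8% had a single start. Genes with CpG-rich regions alone spanned a median of 27972 bp.

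The sequence at the midpoint and at the start did not always belong to the same class. The nearest coding start was itself CpG-poor for 4817 of the 6105 regions (78.9%), and CpG-rich for 1288 (21.1%). Regions of the first kind lay at a median of 119 bp from the start, with 45.2% within 100 bp. Regions of the second kind lay at a median of 643 bp, with 7.0% within 100 bp. They had a mean width of 183.4 bp ± 47.2 (SD), and regions at CpG-poor starts had a mean width of 194.4 bp ± 52.0 (SD).

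Position relative to the start differed between the classes by an amount that depended on the windows used. The midpoint of a CpG-poor region lay within 100 bp of the nearest coding start in 37.1% of cases (2267 of 6105), compared with 47.7% for CpG-rich regions (4807 of 10075), a difference of -10.6 points (interval, -12.1 to -9.02). With CpG and GC read over 250 bp on each side, the difference was -20.8 points (interval, -22.3 to -19.3). With starts required within 500 bp, it was -0.170 points (interval, -1.97 to 1.62). With the class read around the start rather than the midpoint, a setting added after the data were seen, it was 0.229 points (interval, -1.41 to 1.88). The middle of the distribution lay slightly upstream in both classes, with a median offset of -29 bp for CpG-poor and -28 bp for CpG-rich regions. The 5th and 95th percentiles were -791 and 839 bp for the former and -403 and 586 bp for the latter. The midpoint was upstream of the start in 57.0% of CpG-poor and 59.1% of CpG-rich regions, a difference of -2.11 points (interval, -3.68 to -0.546) that turned to 1.66 points (interval, -0.105 to 3.42) when only the 5′ ends of genes were used as starts. Midpoints of CpG-poor regions fell outside coding genes in 37.2%, in an annotated exon in 27.5%, and in an intron in 35.3%. For CpG-rich regions these shares were 45.4%, 32.0%, and 22.6%. The class was read around the midpoint for all of these shares, and they are not given here with the class read around the start.

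**Figure D2:**
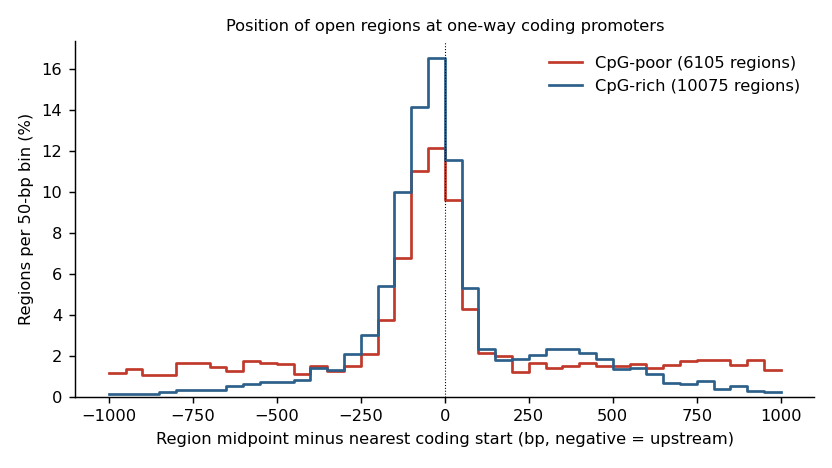
Percent of regions per 50-bp bin (vertical axis) by the distance of the region midpoint from the nearest coding start in bp (horizontal axis, negative is upstream), for 6105 CpG-poor (red) and 10075 CpG-rich (blue) one-way promoter regions. Both peak just upstream of the start at medians of -29 and -28 bp, and the CpG-poor curve has the higher tails beyond 500 bp. The class was read around the midpoint.

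CpG-poor regions were narrower. Their mean width was 192.0 bp ± 51.3 (SD, n = 6105 regions) and that of CpG-rich regions was 205.9 bp ± 54.4 (SD, n = 10075 regions), a difference of -13.8 bp (95% interval, -15.5 to -12.2). Regions over 1 kb from every coding start averaged 180.8 bp. The commonest width was also the narrowest at promoters, that of the region at *Emr1*, for example, from 57498034 to 57498184 on chromosome 17. This minimum width was seen in 39.5% of CpG-poor and 21.8% of CpG-rich regions, a difference of 17.6 points (interval, 16.2 to 19.1). Among regions wider than this the difference in mean width was -2.38 bp (interval, -4.37 to -0.397). The difference was present at each distance, with -12.6 bp (interval, -15.1 to -10.0) within 100 bp of the start, -10.3 bp from there to 500 bp, and -6.84 bp beyond 500 bp. The 5 widest CpG-poor regions were at *Athl1* (556 bp), *Cyp27a1*, which encodes the sterol 27-hydroxylase (553 bp), *Phyhd1* (546 bp), *Clec14a*, an endothelial lectin (511 bp), and *BC024479* (511 bp).

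Another open region lay within 1 kb, midpoint to midpoint, of 3069 CpG-poor regions (50.3%) and 6157 CpG-rich regions (61.1%), a difference of -10.8 points (interval, -12.4 to -9.26). Among regions at least 200 bp wide it was -1.67 points (interval, -3.73 to 0.461). The neighbor was another CpG-poor region for 1941 of the 6105 (31.8%), a CpG-rich region for 1114 (18.2%), a region over 1 kb from every coding start for 233, and a two-way region for 56, with some regions having neighbors of more than 1 class.

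Within the CpG-poor class, these measures varied with the CpG ratio. From ratios below 0.2 (987 regions) through 0.2 to 0.4 (2082 regions) to 0.4 to 0.6 (2755 regions), the share of regions of minimum width was 49.4%, 45.2%, and 33.9%. The share with a neighbor within 1 kb was 39.2%, 47.9%, and 56.0%, and the share lying upstream of the start was 64.1%, 56.7%, and 54.3%. The 281 regions that qualified by GC share alone had a mean width of 197.8 bp ± 40.7 (SD), 17.4% of them had the minimum width, and 49.5% were within 100 bp of the start.

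A TATA box was rare but more frequent at the starts nearest to CpG-poor regions than at those nearest to CpG-rich regions. The letters TATAAA began 40 to 20 bases before the nearest coding start, on its strand, at 79 of 5304 distinct starts of CpG-poor regions (1.49%, interval 1.20% to 1.85%) and at 66 of 8178 starts of CpG-rich regions (0.807%, interval 0.635% to 1.03%). The difference was 0.682 points (interval, 0.317 to 1.08). In a control window of the same size, 140 to 120 bases before the start, the shares were 0.321% (17 starts) and 0.196% (16 starts), with a difference of 0.125 points (interval, -0.0464 to 0.331). These counts are small, and the part of base composition in the class difference was not tested. A start nearest to regions of both classes counts in both, which the intervals do not take into account. CpG-poor regions whose own start was CpG-poor had the box at 67 of 4099 starts (1.63%), and those with a CpG-rich start at 12 of 1205 (0.996%), a difference of 0.639 points whose interval (-0.175 to 1.25) includes 0. The box share was 2.31% for regions with a CpG ratio below 0.2, 1.64% for ratios of 0.2 to 0.4, and 0.993% for ratios of 0.4 to 0.6. CpG-poor gene starts that were open held the box less often than those that were not, at 58 of 2957 (1.96%) and 386 of 8347 (4.62%), a difference of -2.66 points (interval, -3.31 to -1.95). Without olfactory and vomeronasal receptor genes the shares were 1.97% and 5.36%.

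**Figure D3:**
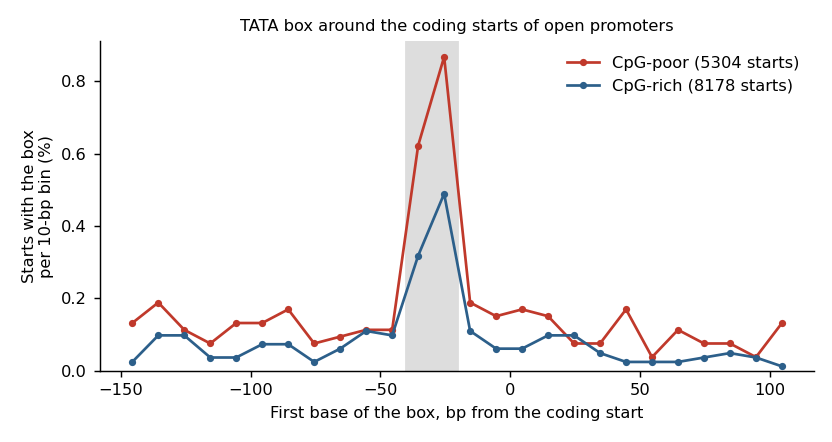
Percent of coding starts (vertical axis) at which a TATA box begins in each 10-bp bin (horizontal axis, bp from the start), for 5304 starts of CpG-poor (red) and 8178 starts of CpG-rich (blue) open promoters. Both have a peak inside the shaded window from -40 to -20 bp, where 1.49% and 0.807% of starts hold the box.

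Motifs of tissue factors were more frequent in CpG-poor than in CpG-rich regions. Each motif was a fixed run of letters searched on both strands within 100 bp of the midpoint, and the same letters read backwards were searched beside it as a measure of base composition. The C/EBP motif (TTGCNNAA) was present in 10.1% of CpG-poor regions (616 of 6105) and 4.23% of CpG-rich regions (426 of 10075), a difference of 5.86 points (interval, 5.02 to 6.73), whereas its letters backwards were present in 2.06% and 2.40%. The FOXA motif (TGTTTAC or TGTTTGC) was present in 6.88% and 2.89%, a difference of 3.99 points (interval, 3.29 to 4.72), and backwards in 2.96% and 1.68%. Both are families with many hepatocyte targets, and C/EBP factors act in myeloid cells as well.

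Of the motifs searched, HNF1 and HNF4 had the largest ratios between the classes. The HNF1 motif (GTTAATNAT) was present in 62 CpG-poor regions (1.02%) and 8 CpG-rich regions (0.0794%), a difference of 0.936 points (interval, 0.701 to 1.22), and backwards in 0.197% and 0.0397%. The HNF4 motif (CAAAGTCCA or CAAAGGTCA) was present in 1.57% and 0.298%, a difference of 1.27 points (interval, 0.965 to 1.63), and backwards in 0.491% and 0.308%. PU.1 (GAGGAAGT) was present in 4.00% and 1.55%, a difference of 2.45 points (interval, 1.92 to 3.02), and backwards in 1.38% and 0.873%. AP-1 (TGACTCA or TGAGTCA, each the opposite strand of the other) was present in 5.41% and 1.88%, a difference of 3.53 points (interval, 2.92 to 4.17), and backwards in 3.11% and 1.07%. The letters of AP-1 read backwards were thus also more frequent in CpG-poor regions. The letters TATAAA, searched in the same way, were present in 4.60% and 2.17%, and backwards in 4.95% and 1.59%.

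Motifs of clock output and of inflammation were searched as well. The RORE (TAGGTCA) was present in 2.42% and 0.824%, a difference of 1.60 points (interval, 1.19 to 2.05), but its letters backwards were as frequent, in 2.21% and 0.913%. The D-box (TTATGTAA or TTATGCAA), bound by DBP, TEF, HLF, and NFIL3, was present in 1.21% and 0.675%, a difference of 0.537 points (interval, 0.233 to 0.875), and backwards in 0.262% and 0.119%. ISRE (GAAANTGAA), the interferon element, was present in 1.74% and 0.596%, with 1.38% and 0.476% backwards. The intervals of the difference included 0 for NF-kB (GGAANTTCC, 0.0815 points, -0.184 to 0.375), for SRE, the SREBP element (TCACNCCAC, 0.140 points, -0.138 to 0.447), and for the CCAAT box (-0.167 points, -1.58 to 1.25). CCAAT was present in 27.2% of CpG-poor and 27.3% of CpG-rich regions, compared with 19.7% and 12.6% backwards. The E-box (CACGTG) and CRE (TGACGTCA) hold a CpG, so their lower shares in CpG-poor regions (6.32% and 1.57%) than in CpG-rich ones (8.52% and 3.02%) are a description of the classes.

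Compared with the 50627 regions over 1 kb from every coding start, CpG-poor promoters held fewer AP-1 (difference, -3.16 points, interval -3.75 to -2.51), FOXA (-3.24 points, -3.90 to -2.53), C/EBP (-2.84 points, -3.63 to -2.01), and HNF4 motifs (-0.972 points, -1.29 to -0.603). PU.1 was lower by a smaller margin (-0.789 points, -1.29 to -0.237). HNF1 differed by 0.0536 points with an interval that includes 0 (-0.186 to 0.349). Read backwards, the letters of AP-1 and FOXA were also less frequent in CpG-poor promoters (3.11% and 2.96%) than in distant regions (4.28% and 4.13%). Those of C/EBP were in 2.06% and 1.84%, of HNF4 in 0.491% and 0.521%, of PU.1 in 1.38% and 1.24%, and of HNF1 in 0.197% and 0.247%. The CCAAT box was the only motif without a CpG whose interval lay above 0 (4.19 points, 3.03 to 5.38), with 23.0% of the distant regions holding it.

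**Figure D4:**
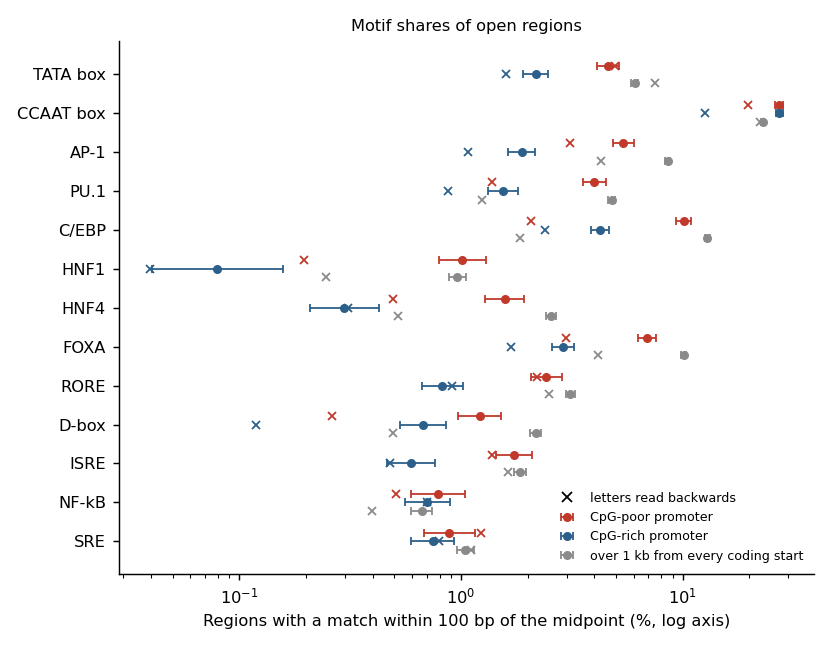
Percent of regions with a motif within 100 bp of the midpoint (horizontal log axis) for CpG-poor promoters (red), CpG-rich promoters (blue), and regions over 1 kb from every coding start (gray). Dots are shares with 95% Wilson intervals and crosses are the same letters read backwards. C/EBP, FOXA, PU.1, AP-1, HNF1, and HNF4 are higher in CpG-poor than in CpG-rich promoters, and the CCAAT box is at 27.2% and 27.3%.

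Genes with an open CpG-poor promoter were then counted in lists of genes by tissue and role. The lists were written with earlier results of these data known, and their counts are read against the 21.6% of all coding genes. Of 22 genes for plasma proteins, which hepatocytes secrete, 20 had a CpG-poor region (90.9%), and none of these had a CpG-rich one. Their 27 regions had a median width of 201 bp, 19 lay upstream of the start, and 21 were within 250 bp of it. Among them, the *Alb* region on chromosome 5 ran from 90889809 to 90890029 (221 bp), with its midpoint 4 bp after the start and a CpG ratio of 0.318. *Apob* had regions 12 and 883 bp after the nearest coding start, which was not the same start for both. The fibrinogen genes *Fga*, *Fgb*, and *Fgg*, which share a cluster on chromosome 3, had regions with midpoints 31, 102, and 69 bp before the start, and *Fga* had a further region 343 bp before it. Complement *C3* had the lowest CpG ratio of this list, 0.079, in a region of 212 bp. *Trf*, the iron carrier transferrin, had the highest, 0.450, in the widest region of the list, 306 bp. *Apoa2* and *Serpinc1* had no open region within 1 kb.

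Of 20 genes for hepatocyte metabolism, 17 had a CpG-poor region (85%). *Cyp7a1*, the rate-limiting enzyme of bile acid synthesis, had a region of 207 bp whose midpoint was 243 bp before the start. *G6pc*, of glucose release, had 1 of 253 bp at 60 bp after it, and *Pck1*, of gluconeogenesis, 1 of 188 bp at 155 bp before it. *Cps1*, the entry enzyme of the urea cycle, had a region of 264 bp at 64 bp before the start. *Cyp27a1* had 2, of which the wider spanned 553 bp. A TATA box was found at the start of *Cyp7a1*, *Cyp8b1*, and *Cyp1a2*, among others. *Cyp2c29* and *Cyp4a14* were not open.

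Of 26 macrophage genes that the annotation held, 17 had a CpG-poor region (65.4%), none of them with a TATA box and none with a CpG-rich region. The Kupffer cell genes *Clec4f*, *Timd4*, and *Cd5l* had 1 region each, the first 2 of minimum width and the third of 171 bp, with midpoints 39 and 92 bp before and 58 bp after the start. *C1qa*, *C1qb*, and *C1qc* had regions with midpoints 142 and 96 bp before and 21 bp after the start. *Emr1*, which encodes F4/80, had a region of minimum width centered on its start, *Cd68* 1 of 270 bp at 112 bp before it, and *Msr1*, the scavenger receptor, 1 of minimum width with 2 CpGs in its window. *Marco*, *Csf1r*, *Lyz2*, *Fcgr1*, *Cd163*, *Folr2*, *Fcer1g*, and *Mpeg1* had no region of any class within 1 kb of a coding start, so defining macrophage genes were only in part listed as open at their promoters. *Vsig4* and *Spi1* were not found under these names on chromosomes 1 to 19.

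Of 22 cytokine and chemokine genes, 13 had a CpG-poor region (59.1%), and 10 of their 15 regions had the minimum width. *Ccl2*, the monocyte attractant, had the widest, 302 bp, with its midpoint 16 bp after the start. *Cxcl10*, an interferon-induced chemokine, had a region of 238 bp upstream of its start. Regions of *Il6*, *Il1a*, *Il12b*, *Cxcl2*, *Ccl3*, *Ccl6*, *Ccl9*, and *Ccl24* each had the minimum width. *Il1b*, *Tnf*, *Il10*, *Il18*, *Ccl5*, *Cxcl9*, *Cxcl13*, and *Ifnb1* had no open region within 1 kb.

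Markers of other cells of the liver were listed as well. Of 20 endothelial genes, 15 had a CpG-poor region (75%), among them *Tie1* (383 bp), *Oit3* (290 bp), *Stab1*, *Clec4g*, and *Lyve1* (minimum width each), and *Eng* and *Esam* with 3 regions each. The stellate cell list, with 4 of 20 genes (20%; *Col1a1*, *Pdgfrb*, *Ecm1*, and *Hgf*), and the lymphocyte and neutrophil list, with 5 of 24 (20.8%; *Cd3g*, *Nkg7*, *Gzmb*, *Prf1*, and *S100a8*), were near the 21.6% of all coding genes. That base includes genes with CpG-rich starts. Among genes with a CpG-poor one-way gene start, 30.5% of all 11304 had an open region at a coding start. The shares were 26.7% of 15 such stellate genes and 20.8% of 24 such lymphocyte and neutrophil genes. They were 90.5% of 21 such plasma protein genes, 89.5% of 19 liver metabolism genes, and 83.3% of 18 endothelial genes. For macrophage genes the share was 68% of 25, and for cytokine and chemokine genes 61.9% of 21. Of 24 genes of other tissues, *Ins2* and *Cela1* had a region, each over 600 bp inside the gene. The olfactory receptor genes had a region at 7 of 1106 (0.633%) and the vomeronasal receptor genes at 0 of 326. Promoters of hepatocyte and endothelial genes were therefore in a list made from LMs, and the part that other cells had in this was not tested.

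All 15 housekeeping genes were open, and 5 had a CpG-poor region (33.3%), or 2 with starts within 500 bp. Such a region was at 21.6% of all coding genes, many of which were not open, and at 4617 of the 12154 open coding genes. The regions at *Psma1*, *Polr2a*, and *Hsp90ab1* lay over 500 bp before a CpG-rich start. Those at *Gapdh* (31 and 193 bp before the nearest start) and *Tubb5* (69 bp before it) lay at CpG-poor starts. Of the 5 genes, 2 had no CpG-rich one-way region. All 25 clock and SREBP genes were open, and 14 had a CpG-poor region (56%), or 9 with starts within 500 bp. The bases are again 21.6% of all coding genes and 4617 of the 12154 open ones. Only 4 of the 14 had no CpG-rich one-way region, and 6 of the 25 genes had a CpG-poor one-way gene start. *Nr1d1*, which encodes REV-ERBα, had 1 of 202 bp at 165 bp before a CpG-poor start. *Per1* had 3, at 64, 83, and 119 bp before different starts, *Hlf* had 3, and *Tef* had 2. *Scap* had a region of 245 bp at 208 bp before an internal coding start (CpG ratio, 0.193). *Srebf1* had 1 of 341 bp and *Scd1*, the stearoyl-CoA desaturase, had 2, the wider of 325 bp. *Insig1*, a target of SREBP, had its region 659 bp inside the gene from a CpG-rich start.

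**Figure D5:**
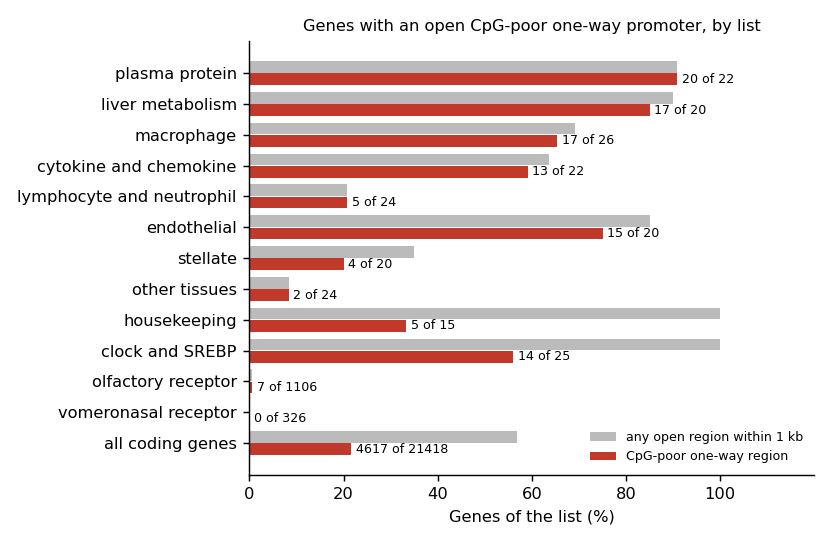
Percent of the genes of each list (horizontal axis) with any open region within 1 kb of a coding start (gray) and with a CpG-poor one-way region (red, with counts). Plasma protein genes (20 of 22) and liver metabolism genes (17 of 20) have the longest red bars, vomeronasal receptor genes have 0 of 326, and all coding genes stand at 21.6%.

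In the member regions of these lists, motif matches were counted and can be read against the shares of all 6105 CpG-poor regions. Those shares were 1.02% for HNF1, 6.88% for FOXA, 1.57% for HNF4, 10.1% for C/EBP, and 4.00% for PU.1. For NF-kB and RORE they were 0.786% and 2.42%. HNF1 matched 3 of 27 plasma protein regions (11.1%; *Alb*, *Fga*, and *Plg*) and none of the 25 liver metabolism, 20 macrophage, 15 cytokine and chemokine, or 20 endothelial regions. FOXA matched 4 of 27 plasma protein regions (*Ahsg*, *Apoh*, *Plg*, and *Trf*), 4 of 25 liver metabolism regions (*Cyp3a11*, *Cyp7a1*, *G6pc*, and *Tdo2*), and 0 macrophage regions. HNF4 matched 2 plasma protein regions, both at *Apoc3*, 2 liver metabolism regions (*Cyp3a11* and *Cyp8b1*), and 0 macrophage regions. C/EBP matched 7 plasma protein regions (25.9%; *Ahsg*, *Apob*, *C3*, *Fgb*, *Hp*, *Plg*, and *Trf*) and 3 macrophage regions (15%; *Cd68*, *Emr1*, and *Tyrobp*). PU.1 matched 2 macrophage regions (*C1qc* and *Ctss*) and none of the 52 regions of both hepatocyte lists. NF-kB matched *Cxcl1* and *Cxcl10*. RORE matched *Cyp3a11*, *G6pc*, *Tdo2*, *C1qc*, *Cd14*, and *Ccl3*. These counts are a description and no list was tested.

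Some genes and stretches held many CpG-poor regions. *Arap1*, a GTPase-activating protein, had 9, *Plec*, the cytoskeletal linker plectin, had 8, and *Zmynd8* had 7, all genes with several annotated coding starts. Of the 9 at *Arap1*, 8 had their midpoint inside the gene (7 in introns and 1 in an exon). Windows of 1 Mb were ranked by the count of genes with a CpG-poor region, which favors windows with many genes. The highest count was on chromosome 19 from 4000001 to 5000000 (26 of 45 coding genes, 57.8%), followed by 3 windows with 22 each. Of all coding genes, 21.6% had such a region. The window on chromosome 13 from 67000001 to 68000000 had 22 of 34 genes (64.7%), and none of the 22 had a CpG-rich one-way region. Of the 22, 18 were Zfp genes for zinc finger proteins, a family in which 127 of 362 genes (35.1%) had a CpG-poor region. The regions of this window are described next. Its 30 regions had a median CpG ratio of 0.387, a median width of 207 bp, and a median distance to the start of 69 bp, compared with 184 bp over all CpG-poor regions. The window on chromosome 17 from 34000001 to 35000000, in the major histocompatibility complex, had 22 of 59 genes (37.3%). Among them were 6 H2 genes such as *H2-Aa*, *H2-Ab1*, and *H2-Eb1*, which present antigen on macrophages. The window on chromosome 7 from 52000001 to 53000000 had 22 of 69 genes (31.9%), including the clock output gene *Dbp* and the hepatokine gene *Fgf21*.

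The lowest CpG content was found at *4931408C20Rik* and *Gbp10*, whose regions of minimum width and of 169 bp had 0 CpGs in the window, 2 such regions in all. The other 3 of the 5 regions lowest in CpG had 1 CpG each, 2 of them also at *4931408C20Rik* on chromosome 1, which had 6 CpG-poor regions in all, and 1 of 217 bp at *BC025446* on chromosome 15.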

How the data were processed

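Fast-ATAC-Seq had been performed on LMs in 18 libraries. Per the methods, which name the Kundaje laboratory's ATAC-Seq pipeline, reads trimmed of adapters were aligned by the authors to mm9 (Bowtie), and peaks were called after replicates had been merged. The deposited list gives the positions of pooled regions and no count or signal, so the precision that depth gives is unknown. The submitters' notes also name HOMER, and the caller and threshold that the pipeline was run with are not given in the sources used here. Starts, given from 0 in the list, are printed from 1.

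Regions were joined to the NCBIM37 genome and its GENCODE vM1 annotation (21418 coding genes and 44018 distinct coding starts on chromosomes 1 to 19), and no region ran past a chromosome end. Members and gene lists were chosen with earlier results of these data known. Shares were compared by differences with Newcombe 95% intervals, and mean widths by intervals from their standard errors. No p-values are given, since regions are not replicates. A gene holds a region when 1 of its coding starts is within 1 kb of the midpoint. For the TATA box each start was used once per class, so a start nearest to regions of both classes counts in both.

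Genes named are those of the lists with a CpG-poor region, the 5 widest and the 5 lowest in CpG, the 3 genes with the most regions, the 1-Mb windows with the most such genes (ties included), and regions next to each threshold. List genes without an open region, and motif or window members given as examples, were named after their values were seen. For sequences, at most 3 genes per list were shown, with a region within 100 bp of the start, those with a TATA box first and then by name, leaving out chromosome 18 and genes whose 100 bases overlap an annotated exon. Some members and sequences chosen by these rules are not reported here. The code was tested on simulated data. The software was Python 3.11.15 with SciPy 1.17.1, NumPy 2.4.6, and, for plots, matplotlib 3.10.9. Alternatives changed the sequence window, the CpG threshold, the distance to the start, the starts used, the region width, and the motif letters.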

Additional observations from a re-analysis of the deposited data

How the results depend on the processing

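No paired analysis was possible because the deposited list pools all libraries and holds no value per replicate. The number of CpG-poor one-way promoter regions was 3069 with a CpG ratio below 0.4 alone and 2152 among regions at least 200 bp wide, and 4376 to 5828 under the other settings. The share upstream of the start, CpG-poor minus CpG-rich, turned to 1.03 points with a ratio below 0.4 alone and to 1.66 points with 5′ ends of genes as starts, and was -0.775 points with starts within 500 bp. The share within 100 bp was -20.8 points with a window of 250 bp on each side, -0.170 points with starts within 500 bp, and 0.229 points with the class read around the nearest start. The share with a neighbor was -1.67 points among regions at least 200 bp wide and -19.6 to -3.46 points under the other settings. The cause was not tested. The open share (-58.6 to -39.0 points), the width (-17.9 to -2.38 bp), and the TATA box share (0.617 to 1.14 points) kept their direction, with intervals that left out 0 under every setting run. Of 45 motif settings, 44 kept their direction and their side of 0. The exception was the CCAAT box, at 0.0962 points with the class read around the nearest start. With starts within 500 bp, the genes with a CpG-poor region numbered 0 for other tissues, 2 for housekeeping, 9 for clock and SREBP, and 4 for olfactory receptors, and stayed within 1.5 times for the other 8 lists. Reading the class around the start and leaving out receptor genes were chosen after seeing the data. Depth limits are unknown, since the list holds no counts.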
